A study of Mus musculus with 4 samples.

Results

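Small nucleolar RNAs (snoRNAs) and small Cajal body RNAs (scaRNAs) were described in effector CD4 cells from the central nervous system (CNS) and from draining lymph nodes (dLN) of mice with experimental autoimmune encephalomyelitis (EAE), a mouse model of multiple sclerosis. The members were the gene symbols that start with Snora, Snord or Scarna, which gave 117 of the 23990 symbols in the deposited tables. Each member was 1 transcript. They comprised 36 Snora, 72 Snord and 9 Scarna symbols, and 23 of them were seen at all, each by between 1 and 5 sequenced fragments in any library that held it. The measurements below are therefore small counts, whatever the size of the FPKM (fragments mapped, scaled to transcript length and library size) that stands beside them.

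Wild type C57BL/6 mice (C57BL/6J in the study's methods) were immunized with a MOG peptide in complete adjuvant with pertussis toxin, and effector CD4 cells were sorted from spinal cord and from pooled draining lymph nodes at EAE onset. There were 2 libraries per tissue and no unimmunized, naive or knockout group, so every comparison is of CNS with dLN cells of diseased mice. The labels call the cells freshly sorted, while the study's methods describe stimulation with PMA and ionomycin before RNA isolation. Nothing in the labels says which mice or how many gave each library, and p-values measure only the spread between these libraries. Mouse age was not given in the sources used here.

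A snoRNA guides a modification to a position of ribosomal or spliceosomal RNA by base pairing with it. Box C/D snoRNAs, named Snord, carry the methylase fibrillarin and guide methylation of a ribose, whereas box H/ACA snoRNAs, named Snora, carry dyskerin and guide the change of a uridine to a pseudouridine. Scarna genes encode guides of either kind that stay in Cajal bodies, nuclear structures where spliceosomal RNAs mature. Most mammalian snoRNAs are cut out of introns of host genes, many of which encode ribosomal proteins or are long noncoding RNAs of the Snhg type. Mature snoRNAs have no poly(A) tail, and the libraries were made with a TruSeq RNA V2 kit, which selects polyadenylated RNA, from RNA isolated on silica columns that retain very short RNAs poorly. The fragments counted here may belong to the snoRNA or to the intron of an unspliced host transcript. Where a member overlaps an exon or an annotated retained intron of its host, they may also belong to that host transcript. These sources cannot be told apart from the FPKM.

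The sequences of 4 H/ACA members, 2 C/D members and 1 scaRNA are shown because the values below turn on them. They were read from GENCODE M21 (GRCm38, the same assembly as the mm10 build of the tables) over the interval that the table gives, 5′ to 3′, as DNA letters. Capitals mark ACA within the last 6 bases for Snora and Scarna members, and TGATGA within the first 25 bases (C box) and CTGA within the last 20 bases (D box) for Snord members.
Snora64: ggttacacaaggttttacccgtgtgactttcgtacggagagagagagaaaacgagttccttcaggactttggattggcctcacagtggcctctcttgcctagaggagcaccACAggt
Snora30: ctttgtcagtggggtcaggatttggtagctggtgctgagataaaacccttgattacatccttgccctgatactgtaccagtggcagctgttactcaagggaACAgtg
Snora52: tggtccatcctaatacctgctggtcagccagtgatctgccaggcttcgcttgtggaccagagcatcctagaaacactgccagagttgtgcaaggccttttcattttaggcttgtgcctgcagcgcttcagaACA
Snora81: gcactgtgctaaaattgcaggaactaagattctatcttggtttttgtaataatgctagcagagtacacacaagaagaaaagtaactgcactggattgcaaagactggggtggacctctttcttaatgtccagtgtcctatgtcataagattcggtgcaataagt
Snord22: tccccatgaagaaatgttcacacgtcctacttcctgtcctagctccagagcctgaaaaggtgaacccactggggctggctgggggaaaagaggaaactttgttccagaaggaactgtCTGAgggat
Snord15a: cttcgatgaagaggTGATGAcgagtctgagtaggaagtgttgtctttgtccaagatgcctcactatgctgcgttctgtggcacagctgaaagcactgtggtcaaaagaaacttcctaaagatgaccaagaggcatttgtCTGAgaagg
Scarna13: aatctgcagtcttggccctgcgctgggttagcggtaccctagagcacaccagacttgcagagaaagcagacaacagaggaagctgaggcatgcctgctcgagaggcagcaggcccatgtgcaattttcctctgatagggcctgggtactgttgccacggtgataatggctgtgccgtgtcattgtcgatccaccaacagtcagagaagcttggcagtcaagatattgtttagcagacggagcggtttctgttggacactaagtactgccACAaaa

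Snora64 lay at chr17:24720789-24720905 on the plus strand, Snora30 at chr7:127527897-127528003 (plus), Snora52 at chr7:141448803-141448936 (plus), Snora81 at chr16:23110770-23110933 (plus), Snord22 at chr19:8725866-8725991 (plus), Snord15a at chr7:99482785-99482932 (minus) and Scarna13 at chr12:105031075-105031349 (minus). A GENCODE sequence was matched to 108 of the 117 members, and for 94 of these it could be cut to the table's own ends. ACA was found within the last 6 bases of 33 of 35 Snora members with a sequence (94.3%), against 1 of 64 Snord members (1.56%). The exact letters TGATGA and CTGA were both found near the ends of 21 of 64 Snord members (32.8%) and of 0 of 35 Snora members. The Snora81 interval had no ACA in its last 6 bases, and the Snord22 interval had no TGATGA in its first 25 bases.

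The shortest members were not seen, and the longer ones were seen in part. The listed lengths ran from 22 to 275 bases with a median of 78, the Snord members being shorter (median 67) than the Snora members (median 119.5). The shortest member with a fragment had 98 bases. By that cut none of the 72 members under 98 bases had a fragment in any library, and 65 of these were Snord. Among the members of 98 bases or more, 22 had no fragment either. Of 38 members from 98 to under 150 bases 17 had a value of at least 0.05 FPKM (44.7%), and of 7 members from 150 to under 300 bases 6 had one (85.7%). Other transcripts of the tables went the same way, with 3 of 879 under 98 bases (0.341%), 12 of 215 from 98 to under 150 bases (5.58%) and 7 of 47 from 150 to under 300 bases (14.9%). The longest member without a fragment was Scarna6 at 248 bases.

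**Figure D1:**
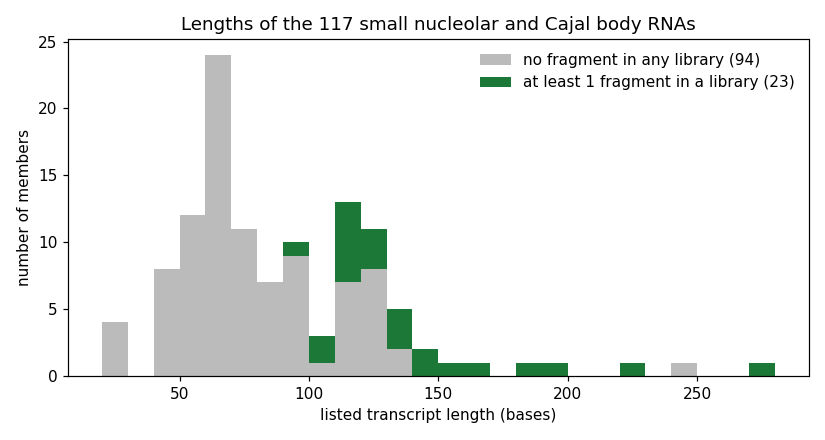
Number of members by listed transcript length in bases, in bins of 10 bases, with grey for the 94 members without a fragment in any library and green for the 23 members with at least 1. All green members are 98 bases or longer.

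The FPKM of so short a transcript is set by very few fragments. A fragment counts only where it lies inside the transcript, and a transcript shorter than most fragments leaves so few places that 1 fragment is worth a large FPKM. The data show the steps directly. In dLN replicate 2 Snora64 had 316 FPKM, which was 4.0 times the 79.1 FPKM of the microRNA precursors Mir1291 and Mir6244 of the same length of 117 bases. In dLN replicate 1 Snora65 had 201 FPKM, 2.0 times the 101 FPKM of Snora34, which is also 118 bases long. Scarna13 and the RNase MRP RNA Rmrp, both of 275 bases, stood at 1.72 and 0.575 FPKM in dLN replicate 1, a ratio of 3.0.

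A curve of the value of 1 fragment against length was fitted to each library, over all short transcripts. At 117 bases 1 fragment was worth 23.7 and 64.6 FPKM in the CNS libraries and 114 and 79.1 FPKM in the dLN libraries. At 275 bases it was worth 0.38, 0.51, 0.585 and 0.477 FPKM in the same order. The same fragment therefore gave a larger FPKM in dLN than in CNS replicate 1, whose fitted mean fragment length was 151 bases against 185 to 195 bases in the other libraries. Depth was close, at 18.5 M to 22.1 M fragments per library. Of 35 member values at 110 bases or longer, 34 fell within 0.1 of a whole number of fragments and all 35 within 0.2. The curve was fitted to whole-number steps with these values among them, so their closeness is no separate check of it. Over the low values of all short transcripts in the fit, 24 of 32 and 32 of 38 fell within 0.1 in CNS replicates 1 and 2. In dLN replicates 1 and 2 these were 34 of 43 and 39 of 54. Below 110 bases the curve could not be relied on. It gave 2.0 fragments for Snora30 in CNS replicate 1, but 0.54 for Snora30 in CNS replicate 2, 0.695 for Snora33 and 0.0933 for Snora68, and these last 3 values were each counted as 1 fragment.

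**Figure D2:**
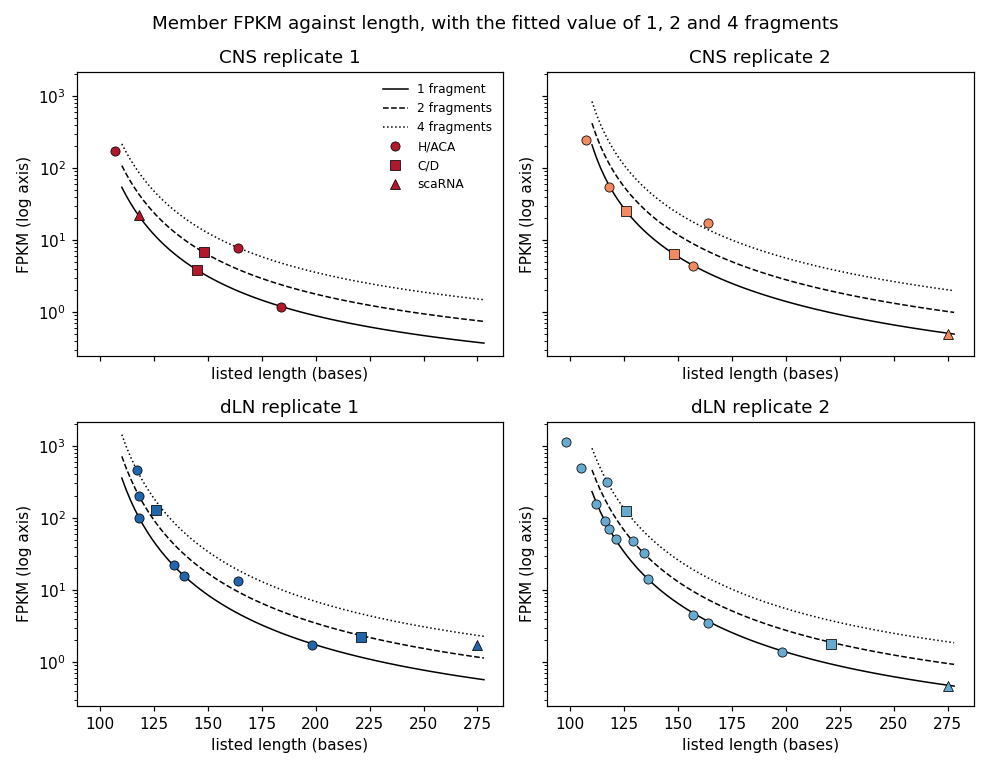
FPKM of each member (log axis) against listed length in bases, 1 panel per library, with circles for H/ACA, squares for C/D and triangles for scaRNA members. The lines give the fitted FPKM of 1, 2 and 4 fragments from 110 bases up, and most members sit on the line of 1 fragment.

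Counted in fragments, the members were seen more often in dLN than in CNS. The 117 members together had 11 and 11 fragments in the CNS libraries and 21 and 25 in the dLN libraries, so the tissues did not overlap. The sum was 22 in CNS (exact Poisson 95% interval 13.8 to 33.3) and 46 in dLN (33.7 to 61.4), and such intervals cover counting error only. Over both libraries of a tissue, 1 unit of FPKM stood for more fragments in CNS, 2.70 times as many at 117 bases and 1.21 times at 275 bases. CNS replicate 1 stood apart in this. At 117 bases 1 fragment was worth 23.7 FPKM there, against 64.6 FPKM in CNS replicate 2 and 114 and 79.1 FPKM in dLN. At 275 bases it was worth more in CNS replicate 2 (0.51 FPKM) than in dLN replicate 2 (0.477 FPKM). Summed FPKM gave a wider gap, with 211 and 350 in CNS against 942 and 2523 in dLN, and 1128 of the last came from the single fragment of Snora68. In bulk RNA, fewer cells that hold an RNA and less of it per cell cannot be told apart.

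By class, H/ACA members had 7 and 8 fragments in the CNS libraries and 13 and 18 in the dLN libraries. C/D members had 3 and 2 fragments in CNS and 5 and 6 in dLN, and scaRNAs had 1 and 1 in CNS and 3 and 1 in dLN. Of the 23 members with a fragment, 13 had them in dLN only, 5 in CNS only and 5 in both tissues. In 11 of the 23 members the count was 1 fragment over all 4 libraries. Snora81 was the 1 member seen in every library.

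**Figure D3:**
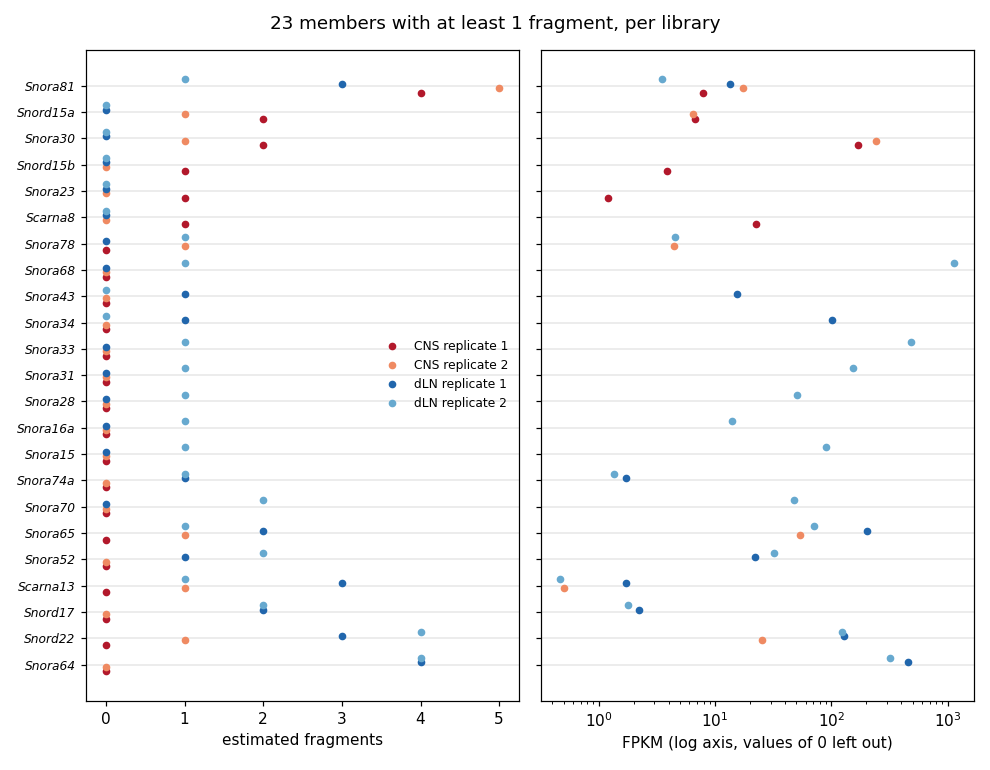
Estimated fragments (left) and FPKM on a log axis (right) of the 23 members with at least 1 fragment, with a point per library, red and orange for CNS and dark and light blue for dLN. The order is by the difference in fragments, with Snora81 at 9 in CNS against 4 in dLN at the top and Snora64 at 0 against 8 at the bottom, and values of 0 FPKM are left out on the right.

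In limma on log2(FPKM + 1), 22 members passed the filter of a mean of 1 FPKM in a tissue, and 7 of them had an adjusted p under 0.05, 2 higher and 5 lower in CNS. Over all 10634 genes tested 74.9% were called, 37.8% higher and 37.2% lower, and of 21 other genes shorter than 300 bases 33.3% were called. With all 4 libraries, the share of members called (7 of 22) was thus below that of all genes and near that of other short genes. Members passed the filter through the tissue where they were seen, so their median log2 ratio of -2.41, against 0.05 over all genes, is a description only. In 8 of the 22 the tissues did not overlap, where 89.4% of all genes tested did not. When each member was set on the scale of fragments per 20 M, with log2(fragments + 1), 1 member kept an adjusted p under 0.05 (Snora64).

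Snora64, an H/ACA snoRNA in the Rps2 gene, was the member with the largest difference in fragments. It was at 0 in both CNS libraries and at 455 and 316 FPKM in the dLN libraries, which was 4 fragments in each. It had 8 fragments in dLN and 0 in CNS. With the fitted curve taken as exact, the 95% interval for counting error put the level in dLN at least 4.61-fold higher. The level was 7.20-fold higher when the CNS count was set to a floor of 3 fragments over both libraries. The interval allows neither for error of the curve nor for the choice of the member with the largest difference. limma gave an adjusted p of 8.12e-05 on FPKM and 0.0363 on fragments. Its interval overlapped a transcript of Rps2 annotated as a retained intron. Rps2 itself, a small-subunit ribosomal protein gene, was at 1764 and 1963 FPKM in CNS and 2020 and 2116 FPKM in dLN (log2 ratio -0.15 ± 0.08 SE, adjusted p = 0.145 in limma).

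Snord22, a C/D snoRNA in the noncoding host gene Snhg1, was at 0 and 25.3 FPKM in CNS and at 129 and 123 FPKM in dLN. These were 0 and 1 fragments against 3 and 4. The level per fragment was 16.1-fold higher in dLN, with an exact 95% interval for counting error of 2.07 to 727. The limma call on FPKM (adjusted p = 0.0415) was lost on the scale of fragments (adjusted p = 0.0983), without either dLN library (adjusted p = 0.128 and 0.111), with a pseudocount of 0.1 (0.0725), with no filter (0.115) and with robust eBayes (0.171). Snhg1 was also lower in CNS, at 56.6 and 61.1 FPKM against 150.3 and 150.5 FPKM in dLN (log2 ratio -1.34 ± 0.08 SE, adjusted p = 0.000184). The Snord22 interval overlapped an exon of an Snhg1 transcript.

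Of the other members called lower in CNS, Snord17, a C/D snoRNA in an intron of the sorting nexin gene Snx5, was at 0 in CNS and at 2.23 and 1.80 FPKM in dLN, 2 fragments in each. Against the floor of 3 fragments over both CNS libraries the level was 1.76-fold higher in dLN, but the exact 95% interval reached down to 0.874, so a difference was not detectable at this depth. Snora52, in the ribosomal protein gene Rplp2, was at 0 in CNS and at 22 and 32.3 FPKM in dLN, from 1 and 2 fragments. Snora74a was at 0 in CNS and at 1.71 and 1.36 FPKM in dLN, from 1 fragment in each. No fold is given for Snora52 or Snora74a, since neither tissue passed 3 fragments. The limma adjusted p-values on FPKM were 0.000735 for Snord17, 9.15e-05 for Snora52 and 0.00139 for Snora74a, and on fragments they were 0.144, 0.226 and 0.364. Snx5 was at 101 and 85.8 FPKM in CNS and at 153 and 159 FPKM in dLN (adjusted p = 0.00228), and Rplp2 was at 3586 and 4397 FPKM in CNS and at 3178 and 3201 FPKM in dLN (adjusted p = 0.0498), higher in CNS.

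Both members called higher in CNS rested on an estimated 3 fragments. Snora30, an H/ACA snoRNA in an intron of Srcap, a chromatin remodelling gene, was at 169 and 242 FPKM in CNS and at 0 in both dLN libraries, from 2 fragments and 1 fragment. At its 107 bases the fragment curve could not be relied on. The curve gave 0.54 fragments in CNS replicate 2, which was counted as 1, and limma on fragments used the unrounded value. Snord15a, a C/D snoRNA in an intron of the ribosomal protein gene Rps3, was at 6.76 and 6.47 FPKM in CNS and at 0 in both dLN libraries, also from 2 fragments and 1 fragment. Their limma adjusted p-values were 8.12e-05 and 9.15e-05 on FPKM and 0.336 and 0.242 on fragments, and no fold is given. Rps3 was higher in CNS, at 1096 and 1078 FPKM against 867 and 856 FPKM (log2 ratio 0.34 ± 0.06 SE, adjusted p = 0.00635). Snord15b, from another part of Rps3, was at 3.83 FPKM in CNS replicate 1, which was 1 fragment, and at 0 elsewhere.

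Snora81, in the gene of the translation initiation factor Eif4a2, had the most fragments of all members. It was at 7.80 and 17.2 FPKM in CNS, 4 and 5 fragments, and at 13.4 and 3.46 FPKM in dLN, 3 and 1 fragments. The FPKM of the tissues overlapped (adjusted p = 0.390), and the CNS level per fragment was 1.37 times that of dLN with an exact 95% interval of 0.382 to 6.09. Eif4a2 was lower in CNS, at 75.8 and 68.7 FPKM against 114 and 114 FPKM (log2 ratio -0.65 ± 0.09 SE, adjusted p = 0.00182). Snora65, in the ribosomal protein gene Rpl12, was at 0 and 54.2 FPKM in CNS and at 201 and 70.3 FPKM in dLN, 0 and 1 against 2 and 1 fragments. Its tissues did not overlap in FPKM, but the adjusted p was 0.116 and the interval of the level in dLN over CNS ran from 0.637 to 416.

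Some of the highest FPKM values came from short members with a single fragment in dLN replicate 2. Snora68 was at 1128 FPKM with a length of 98 bases, Snora33, in Rps12, at 486 FPKM with 105 bases, Snora31, in Tpt1, at 153 FPKM with 112 bases, and Snora15, in Cct6a, at 89.5 FPKM with 116 bases. Snora34, in Kansl2, was at 101 FPKM in dLN replicate 1. These 5 members were at 0 in the other 3 libraries, and limma gave an adjusted p of 0.214 for each. Snora70, in Rpl10, had 2 fragments in dLN replicate 2. Snora78, in Snhg9, had 1 fragment in CNS replicate 2 and 1 in dLN replicate 2.

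Among the 9 scaRNAs, Scarna13 was at 0 and 0.503 FPKM in CNS and at 1.72 and 0.469 FPKM in dLN, from 0 and 1 against 3 and 1 fragments (adjusted p = 0.146). Its host Snhg10 was at 0.504 and 1.24 FPKM in CNS and at 1.58 and 0.788 FPKM in dLN. Scarna8, in an intron of Haus6, had 22.3 FPKM in CNS replicate 1, from 1 fragment, and 0 elsewhere. Scarna2, Scarna3a, Scarna3b, Scarna6, Scarna9, Scarna10 and Scarna17 were listed at 0 in all 4 libraries. Among the brain-enriched C/D snoRNAs of the imprinted Snord116 region, Snord116, Snord116l1, Snord116l2 and Snord64 were listed at 0 in all 4 libraries, at lengths of 90, 90, 90 and 46 bases. At those lengths no member was seen, so their level was not detectable.

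Host genes were measured far more firmly than the members in them. Among the 24 members with any value above 0, a host gene on the same strand was annotated for 23, of which 17 lay in protein-coding genes. The member lay in an intron of every transcript of its host for 10, inside a retained-intron transcript only for 10, and over an exon for 3. Of the 20 hosts of these members that were tested, 5 were higher and 9 were lower in CNS, and their median log2 ratio was -0.21. Over all genes tested 37.8% were higher and 37.2% were lower in CNS. Some members in highly expressed hosts were not seen. Snora7a in Rpl32 (mean 3639 FPKM), Snora69 in Rpl39 (2985 FPKM) and Snora62 in Rpsa (1778 FPKM) had no fragment in any library at lengths of 129, 122 and 128 bases. Over all members, 66 host genes were tested, of which 18 were higher in CNS and 35 lower (median log2 ratio -0.33), beside the same shares of all genes.

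**Figure D4:**
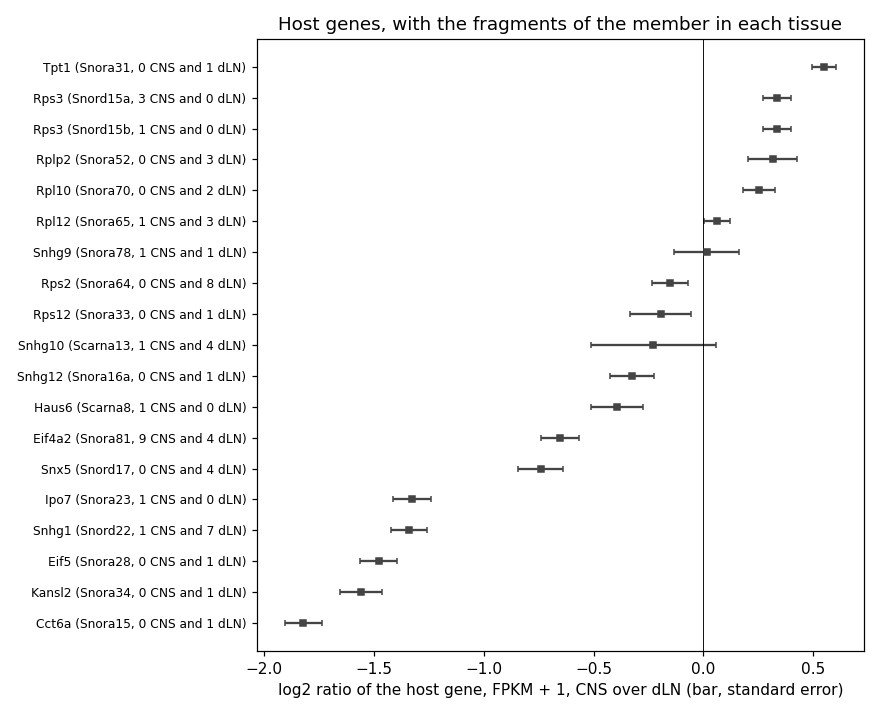
log2 ratio of FPKM + 1 in CNS over dLN for the host genes of 19 members, with squares for the limma estimate and bars for its standard error, and the fragments of the member in each tissue in the labels. Of the genes shown, Tpt1 is highest at 0.55 and Cct6a lowest at -1.82, while the members beside them have between 1 and 13 fragments in all.

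The protein genes of snoRNA particles were well measured, and nearly all were lower in CNS. All 4 box C/D core proteins measured fell. The methylase fibrillarin (Fbl) was at 75.3 and 105 FPKM in CNS and at 506 and 555 FPKM in dLN (log2 ratio -2.56 ± 0.17 SE, adjusted p = 0.000243). Nop56 and Nop58, which bridge the guide and the methylase, had log2 ratios of -3.05 and -3.02, and Nhp2l1, which binds the guide's kink-turn, -1.85. All 4 H/ACA core proteins fell as well. The pseudouridine synthase dyskerin (Dkc1) was at 11.3 and 10.7 FPKM in CNS and at 122 and 127 FPKM in dLN (log2 ratio -3.39 ± 0.08 SE, adjusted p = 8.12e-05), Nhp2 had a log2 ratio of -2.53, Gar1 -2.36 and Nop10 -1.23.

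Of 12 genes for assembly and transport of the particles, 10 fell, 1 rose and 1 did not pass the test. Nolc1, a nucleolar phosphoprotein that binds the particles, was at 16.9 and 18.9 FPKM in CNS and at 166 and 182 FPKM in dLN (log2 ratio -3.22 ± 0.10 SE). The H/ACA assembly factors Naf1 and Shq1 had log2 ratios of -2.86 and -2.52, and the ATPases Ruvbl1 and Ruvbl2 -2.56 and -2.64. Pih1d1, a partner of those ATPases, rose (log2 ratio 1.15, adjusted p = 0.00045). Phax, an export adaptor, was at 25.3 and 23.6 FPKM in CNS and 23.6 and 22.5 FPKM in dLN (adjusted p = 0.427). Of 7 Cajal body genes 6 fell, among them coilin (Coil, log2 ratio -1.0) and Gemin4 (-3.0), and Gemin2 rose (log2 ratio 1.12, adjusted p = 0.00212). Beside these, 37.2% of all genes tested were lower in CNS, and no test of the lists as such was made.

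**Figure D5:**
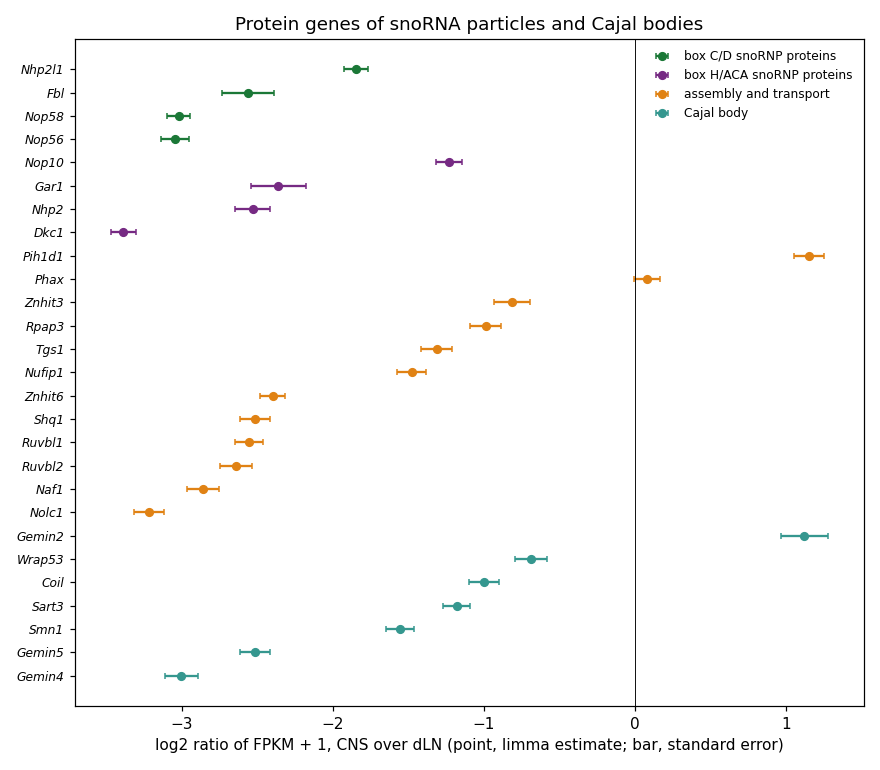
log2 ratio of FPKM + 1 in CNS over dLN, with its limma standard error, for 27 protein genes in 4 lists given by colour. 24 of the 27 lie left of 0 and 3 lie right of it, Pih1d1, Gemin2 and Phax.

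Of 14 noncoding host gene symbols listed 12 were in the tables and 11 were tested, of which 7 fell, 1 rose and 3 did not pass the test. Gas5, the host of many C/D snoRNAs, was at 12.8 and 10.7 FPKM in CNS and 40.1 and 41.2 FPKM in dLN (log2 ratio -1.71 ± 0.11 SE, adjusted p = 0.00023), and Snhg6 had a log2 ratio of -1.0. Snhg3 rose, at 30.8 and 27.8 FPKM in CNS against 19.5 and 16.3 FPKM in dLN (log2 ratio 0.69, adjusted p = 0.00514). Among other short noncoding RNAs, 4 were tested and 2 were higher in CNS. These were Rmrp, at 2.66 and 6.03 FPKM against 0.575 and 1.41 FPKM (adjusted p = 0.0234), and the minor spliceosomal RNA Rnu12, at 3.12 and 5.91 FPKM against 0 and 0 (adjusted p = 0.00109). Rmrp had 7 and 12 fragments in CNS and 1 and 3 in dLN, whereas the Rnu12 call rested on 1 fragment in each CNS library. Of 1085 microRNA precursors 16 were tested, 5 of which were lower and 0 higher in CNS, while the other 11 did not pass the test. Their fragments are not given here, but Mir1291 and Mir6244, at 79.1 FPKM in dLN replicate 2, stood at the value of 1 fragment for 117 bases. Precursors also passed the filter through the tissue where they were seen, so these counts are a description only. Beside the counts of these lists, 37.8% of all genes tested were higher and 37.2% lower in CNS.

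The 8 T cell markers were present in every library but did not go 1 way. In limma 5 were higher in CNS, 2 were lower and 1 did not pass the test, beside 37.8% and 37.2% of all genes tested called higher and lower. Cd4 was at 502 and 531 FPKM in CNS and 82 and 66.7 FPKM in dLN. Cd44 was lower in CNS, at 112 and 112 against 176 and 157 FPKM, as was Cd5, at 186 and 209 against 235 and 248 FPKM. All 8 myeloid markers were above 0 in both CNS libraries, and their summed FPKM was 20 and 144 in CNS against 4.32 and 3.84 in dLN, so that CNS replicate 2 stood apart. Lyz2, a macrophage gene, accounted for 92.1 FPKM of that library. The 8 neural markers summed to 49.8 and 49.7 FPKM in CNS and 55.7 and 58 FPKM in dLN, most of it Mbp, and Olig2 was at 0 in all 4 libraries. In limma 3 of the 8 neural markers were tested, and they did not go 1 way. Mbp was lower in CNS, at 48.6 and 44.5 against 55.6 and 57.7 FPKM (adjusted p = 0.0361). The astrocyte gene Gfap was higher, at 0.655 and 2.51 FPKM in CNS and at 0 in dLN (adjusted p = 0.0312). The neuronal gene Snap25 was at 0.316 and 1.80 against 0.00279 and 0.0246 FPKM (adjusted p = 0.0822). Under 0.05 FPKM in all libraries were 4 of the 8. Klrb1c of the NK cell markers, at 2.53 and 3.21 against 0.0442 and 0 FPKM, and Cd79b of the B cell markers, at 1.14 and 1.47 against 0.213 and 0.179 FPKM, were also higher in CNS (adjusted p = 0.000432 and 0.00461). The part of these cells in the members' values was not tested. The median log2 ratio of the members tested was -2.41 with all 4 libraries, -2.02 without CNS replicate 2 and -2.15 without CNS replicate 1. It was -3.91 and -1.44 without dLN replicates 1 and 2. The members tested differed between these fits, and the replicate spread of the members' median log2 value was 1.6, so these values are a description only. The Y-linked Ddx3y was at 12.7 and 11.2 FPKM in CNS and at 0 in dLN, and Xist was at 0 and 0.0026 FPKM in CNS and 26.6 and 22.3 FPKM in dLN. Tissue and the sex of the mice therefore cannot be told apart here.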

How the data were processed

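Reads of 4 libraries were trimmed and mapped to mm10 by the authors, who deposited a table for each tissue with the FPKM of 33819 RefSeq transcripts. The aligner and the program behind FPKM are not given in the sources used here. The CNS header names both libraries in 1 cell, and its columns were taken in that order. The tables hold 0 columns without a sample. Deposited FPKM were summed by symbol, leaving out 565 transcripts without one (0.142% to 0.446% of the FPKM). Starts count from 0 in the tables and from 1 here.

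Genes that averaged 1 FPKM or more in either tissue entered limma 3.58.1 (R 4.3.3, trended eBayes) as log2(FPKM + 1). The model held tissue alone, and Benjamini-Hochberg adjusted p-values under 0.05 were called. The pseudocount understates changes of low genes. An exact permutation test of 2 against 2 cannot go below p = 0.333. Fragments were estimated as FPKM × effective length × depth, where depth and a shifted gamma distribution of fragment lengths were fitted to the steps of low values. The listed length had been planned in its place, and was replaced once those steps were seen. Python 3.11.15 with numpy 2.4.6, scipy 1.17.1, pandas 2.3.3 and matplotlib 3.10.9 was used. Both fits were tested on simulated data. For the fragment curve these data were drawn from the same kind of distribution that was then fitted, so that test cannot show an error in the curve's shape. Intervals are exact and cover counting error only.

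The members and gene lists were chosen with earlier results of these data known. Members named were the 10 of highest mean FPKM with at least 10 fragments by listed length, the called members without overlap and with that minimum, every Scarna, and Snord64, Snord107 and Snord113 to Snord116. Snord17, Snora74a, Snord15b, Snora81, Snora70, Snora78, Snora7a, Snora62 and Snora69 were named after their values were seen. Host genes were the longest protein-coding or long noncoding GENCODE M21 gene on the same strand that holds the member. The alternatives covered pseudocount, unit, scaling, filters, eBayes options, a replicate block and each library left out, and a minimum of 10 fragments and a fit on fragments, both by effective length, were added after seeing the data. Some genes are not reported here.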

Additional observations from a re-analysis of the deposited data

How the results depend on the processing

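The 7 calls among members depended on the scale. With fragments by effective length per 20 M in place of FPKM, 1 member was called, 0 higher and 1 lower in CNS, and the median log2 ratio was -0.47. With a pseudocount of 0.1 that median was -4.42, since most members are at 0 in a tissue. Members called lower numbered 3 with fragments scaled to library size in place of FPKM together with a pseudocount of 0.1 (4 with that pseudocount on FPKM), with a minimum of 5 FPKM and with at least 10 fragments by listed length, where 5 members were called in all. No member was left with a minimum of 10 fragments by effective length. Leaving out 1 library in turn gave 7 to 13 calls, 2 to 5 higher and 5 to 11 lower, and a median from -3.91 to -1.44, and the lone library was then assumed to vary like the other tissue. Calls rose to 11 without CNS replicate 2 and to 13 without dLN replicate 1. Members tested numbered 20 and 23 without CNS replicates 1 and 2, and 19 and 15 without dLN replicates 1 and 2. The calls without 1 library are therefore not out of the same 22 members. With 1 library left in a tissue, they cannot decide whether members were called less often than all genes. A fit with the replicate number as a block gave 7 calls. The replicate differences of the tissues correlated at 0.0933, so that the replicate numbers were not treated as a pairing.

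Of 352 values of single members under the alternatives, in 321 neither the direction nor the call changed, 13 lost and 13 gained a call, and 5 turned. The log2 ratio of Snora78 turned to 0.026 with equal upper quartiles, its values without 1 library ran from -1.25 to 1.22, with 1.20 without CNS replicate 1 and 1.22 without dLN replicate 2, and it was 0.021 on fragments by effective length, and that of Snora81 ran from -0.18 without dLN replicate 2 to 1.504 without dLN replicate 1. None of the 5 passed the test. Every member had 5 fragments or fewer per library, and the fragment curve could not be relied on below 110 bases.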
